A study of Rattus norvegicus with 20 samples.

Results

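This section describes 10 genes of the insulin-like growth factor 1 (IGF1), insulin and FOXO signalling pathway in rat gastrocnemius muscle, taken by their symbols from a table of 32495 rows with a gene name. The members, in the order of the pathway, were Igf1, Igf1r, Insr, Irs1, Irs2, Akt1, Akt2, Foxo1, Foxo3 and Eif4ebp1, and all 10 passed the filter on low counts along with 11716 genes in total. The muscles came from female Fischer 344 rats that all carried the Ward colorectal carcinoma, so the reference group was tumour-bearing and not healthy. TUMOUR STD rats (n = 5) ate the standard diet and had no chemotherapy. CHEMO STD rats ate the same diet and had 2 cycles of CPT-11 (irinotecan) with 5-fluorouracil, and CHEMO FO rats (n = 8) had the same cycles with a diet that held fish oil as a source of EPA and DHA from the start of chemotherapy. Muscle of the treated rats was taken 7 days after the last cycle. CHEMO STD had 7 libraries, of which replicates 1 and 2 differed by much less than any other pair within a group (chi-square per gene 2.23, against 13.7 to 255 in the 58 other pairs) and were summed and counted as 1 sample, leaving n = 6.

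IGF1 and insulin bind related receptor tyrosine kinases, which phosphorylate the adaptor proteins IRS1 and IRS2 and through them switch on PI3K and the kinase AKT. AKT holds the transcription factors FOXO1 and FOXO3 outside the nucleus and, through mTORC1, relieves the block that 4E-BP1 (the product of Eif4ebp1) places on the start of translation. When the signal is low, as in fasting, FOXO factors enter the nucleus and induce ubiquitin ligase, autophagy and fuel-switch genes in muscle, and among their known targets are Irs2, Insr and Eif4ebp1 themselves. The pathway acts mostly through phosphorylation, which messenger RNA levels do not show.

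Promoters from RefSeq (build GRCr8) were at hand for 7 of the 10 members, all but Irs2, Foxo3 and Eif4ebp1. The stretches of 250 bases that end at the transcription start are shown for 3 of them, both receptors and Foxo1. Foxo1 was the only member to pass the call thresholds given below, and its call did not hold after adjustment. The receptors are shown because a match to the letters that FOXO factors recognise occurs in the Insr stretch and not in that of Igf1r. Capitals mark any match on either strand to the FOXO core GTAAACA, to the GC box GGGCGG or the E-box CACGTG. Igf1r lies on chr1:130959747-130959996 of the forward strand, Insr on chr12:6128804-6129053 of the reverse strand and Foxo1 on chr2:138462724-138462973 of the forward strand.
Igf1r: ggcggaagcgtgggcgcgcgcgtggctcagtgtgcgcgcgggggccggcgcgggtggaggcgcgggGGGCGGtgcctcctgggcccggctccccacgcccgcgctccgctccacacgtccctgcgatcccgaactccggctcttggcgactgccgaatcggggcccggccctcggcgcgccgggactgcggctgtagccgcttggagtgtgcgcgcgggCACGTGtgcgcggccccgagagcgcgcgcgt
Insr: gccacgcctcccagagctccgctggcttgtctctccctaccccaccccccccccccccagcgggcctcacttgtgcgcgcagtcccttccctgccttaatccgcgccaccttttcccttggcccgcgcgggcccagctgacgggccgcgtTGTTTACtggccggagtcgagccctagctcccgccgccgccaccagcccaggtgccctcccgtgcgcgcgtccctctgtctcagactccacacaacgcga
Foxo1: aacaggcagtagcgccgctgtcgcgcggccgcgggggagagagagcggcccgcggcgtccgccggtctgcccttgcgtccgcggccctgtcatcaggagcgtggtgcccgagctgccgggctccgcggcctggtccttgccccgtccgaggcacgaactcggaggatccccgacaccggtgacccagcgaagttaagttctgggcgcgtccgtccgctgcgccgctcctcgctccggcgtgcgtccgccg
The Insr stretch held the FOXO core, read on the reverse strand, from 100 to 94 bases before the start, and 3.21% of all 33469 promoters of the same length held one. The Igf1r stretch held a GC box and, from 31 to 26 bases before the start, an E-box, which 30.5% and 5.59% of promoters held. The Irs1 stretch held 2 GC boxes, and Foxo1 held none of the 3 motifs. No match overlapped another. The bases G and C made up 79.6% of the Igf1r stretch, 71.2% of the Insr stretch and 74.4% of the Foxo1 stretch, against a median of 51.2% over all promoters. In the stretches not shown they made up 70.8% for Irs1, 54.8% for Akt1, 48.4% for Akt2 and 46.8% for Igf1. A match of letters describes the window and does not show that a factor binds there.

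Total counts on named genes ran from 3020821 to 10857477 per library, and the median was 6200550 in TUMOUR STD, 4944773 in CHEMO STD and 4634605.5 in CHEMO FO. Levels are given as read counts scaled to library size (CPM) with TMM factors, and since transcript lengths were not used they are compared between samples and not between genes. At the lowest member count, 33 reads of Igf1, counting error alone was 17.4%. Muscle-fibre markers (among them Acta1, Ckm and Mylpf) were high in every sample (summed over 8 genes, 125073 to 248888 CPM). CHEMO FO replicate 18 stood apart: its TMM factor was 1.21 against 0.934 to 1.06 elsewhere, and it was the highest of the 19 samples for 18.6% and the lowest for 18.2% of all genes tested. Its muscle-fibre sum was the lowest, at 125073 CPM against at least 179469 CPM elsewhere, and its macrophage sum the highest, at 831 CPM. The largest parts of that sum were Cd163 (273 CPM, at most 65.4 elsewhere) and Mrc1 (167 CPM, at most 68.1 elsewhere). Replicate 18 was also highest for Cd68, C1qb, C1qc and Cd14 but for no other macrophage marker. Its Adgre1 (7.54 CPM) and Csf1r (54.3 CPM) lay below the median of the other CHEMO FO samples (11.4 and 55.4 CPM). TUMOUR STD replicate 10 held the highest keratinocyte marker sum (587 CPM) and CHEMO STD replicate 7 the highest lymphocyte marker sum (79.1 CPM). CHEMO FO values of the members are therefore given with and without replicate 18, and in bulk tissue fewer cells of a type and less RNA per cell cannot be told apart.

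The first question was whether chemotherapy moved these genes, the next whether fish oil did so during chemotherapy. No member was called between CHEMO STD and TUMOUR STD, 1 member (Foxo1) was called higher in CHEMO FO than in CHEMO STD, where 0.615% of all genes were, and none was called between CHEMO FO and TUMOUR STD. The call required both an unadjusted p below 0.05 in edgeR's quasi-likelihood test and a 1.5-fold change or more. Those thresholds follow the study's methods. Over all genes the same rule called 2.38% (279 genes), 1.66% (195 genes) and 3.6% (422 genes) of those tested in the 3 comparisons, against which the 0, 1 and 0 calls among 10 members are to be read. After Benjamini-Hochberg adjustment edgeR called 0 genes in any comparison, with 762 (6.5%), 528 (4.51%) and 1059 (9.04%) genes at an unadjusted p below 0.05, where 0, 1 and 1 of the members were. All 10 members overlapped between groups in every comparison, and the groups were apart for 0.495%, 0.0683% and 0.324% of all genes. DESeq2 fitted on all samples called 0, 0 and 11 genes after adjustment and DESeq2 on the compared groups alone 16, 0 and 5, and limma voom called none. The members' median log2 fold change was −0.204 for CHEMO STD against TUMOUR STD (3 higher, 7 lower), where that of all genes was −0.00163. For CHEMO FO against CHEMO STD it was 0.15 (7 higher, 3 lower), where that of all genes was −0.00595. Between CHEMO FO and TUMOUR STD it was −0.0222 (4 higher, 6 lower), where that of all genes was 0.00228. The comparisons share samples, the CHEMO STD group in the first pair and CHEMO FO or TUMOUR STD in the others, and their values are set side by side only.

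**Figure D1:**
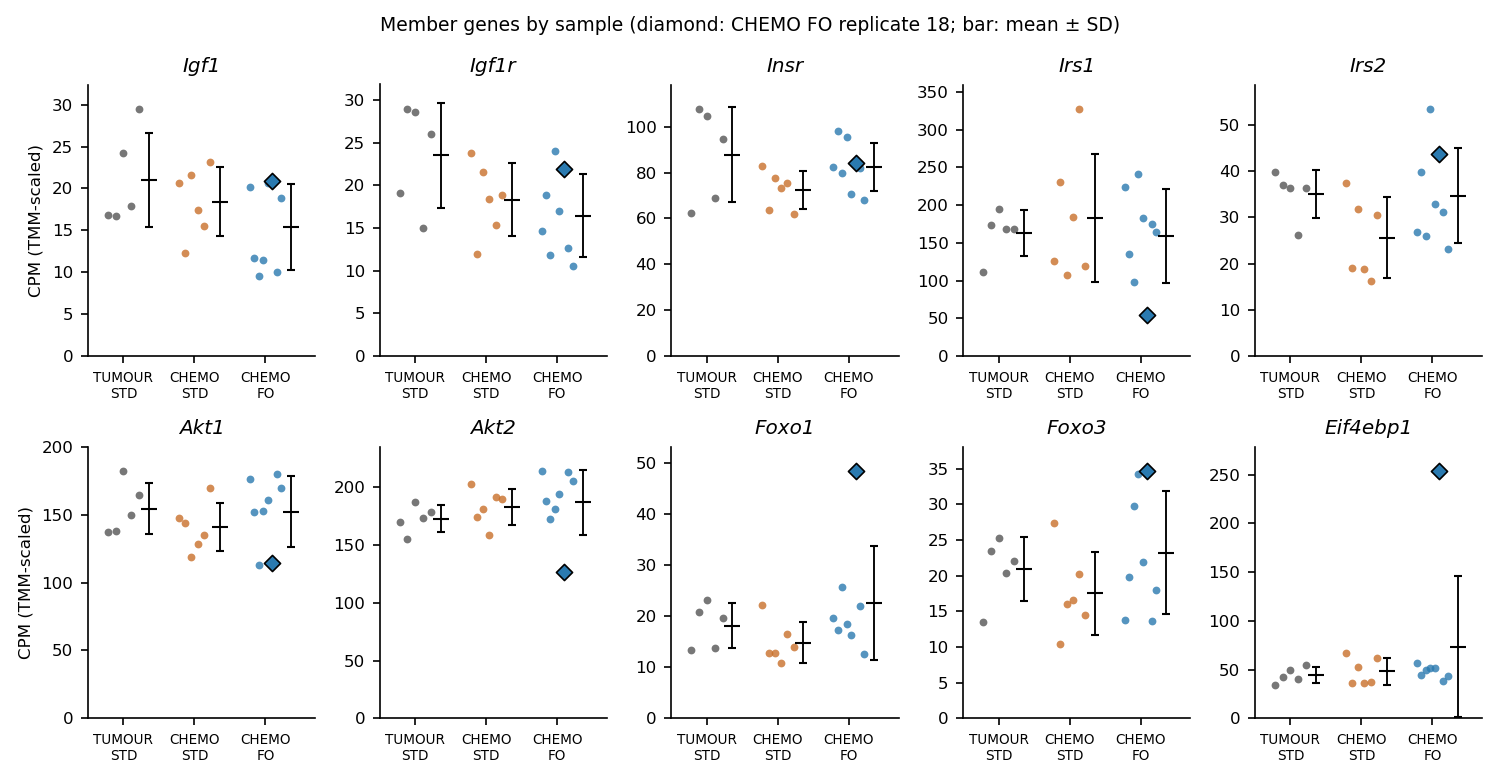
Level of each of the 10 genes in every sample, as TMM-scaled CPM on the vertical axis, with TUMOUR STD (n = 5), CHEMO STD (n = 6) and CHEMO FO (n = 8) on the horizontal axis. Dots are samples, the diamond is CHEMO FO replicate 18, and bars are the mean with its SD; the groups overlap for all 10 genes, and the diamond is far above the other CHEMO FO samples for Foxo1 (48.4 CPM) and Eif4ebp1 (253 CPM).

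Igf1 encodes the secreted growth factor, which muscle fibres and other cells of the tissue make locally. In TUMOUR STD the 5 samples held 16.9, 16.7, 24.2, 17.96 and 29.5 CPM. CHEMO STD ran from 12.2 to 23.2 CPM with a median of 19.04, and CHEMO FO from 9.61 to 20.9 CPM with a median of 15.3. The groups overlapped, but 4 of the 8 CHEMO FO samples lay below the lowest sample of the other groups. The log2 fold change was −0.17 (SE 0.228, adjusted p = 0.852, edgeR) for CHEMO STD against TUMOUR STD and −0.25 (SE 0.207, adjusted p = 0.974) for CHEMO FO against CHEMO STD, or −0.33 (SE 0.208, adjusted p = 0.889) without replicate 18. Between CHEMO FO and TUMOUR STD it was −0.42 (SE 0.215, unadjusted p = 0.0607, adjusted p = 0.557). Leaving out the same library, that value was −0.49 (unadjusted p = 0.0329, adjusted p = 0.527, edgeR), short of 1.5-fold. Fibroblast and matrix markers ran the same way, with all 9 tested below TUMOUR STD in CHEMO FO (median −0.286 on the log2 scale, 1 called, summed level 4008 to 15183 CPM in TUMOUR STD, 3304 to 13176 in CHEMO STD and 2346 to 8664 in CHEMO FO), and their part in the Igf1 values was not tested.

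Igf1r encodes the receptor for IGF1. TUMOUR STD samples held 19.1, 28.9, 28.6, 15.0 and 26.1 CPM, CHEMO STD ran from 11.9 to 23.8 CPM with a median of 18.7, and CHEMO FO ran from 10.6 to 24.1 CPM with a median of 15.8. The top 3 TUMOUR STD samples exceeded every treated sample, and 4 CHEMO FO samples lay below the lowest TUMOUR STD sample. Against TUMOUR STD the log2 fold change was −0.35 in CHEMO STD (SE 0.219, unadjusted p = 0.126, adjusted p = 0.727, edgeR) and −0.52 in CHEMO FO (SE 0.206, unadjusted p = 0.0186, adjusted p = 0.505). The exact permutation test of mean log2 CPM (two-sided, 1287 arrangements) gave p = 0.0528 for the latter. Igf1r was the only member at an unadjusted p below 0.05 in that comparison, where 9.04% of all genes were, and it missed the 1.5-fold threshold. It passed both thresholds when TUMOUR STD replicate 11 (−0.65), CHEMO FO replicate 16 (−0.60) or CHEMO FO replicate 18 (−0.60) was left out. Between CHEMO FO and CHEMO STD the log2 fold change of Igf1r was −0.18 (SE 0.2, adjusted p = 0.974, edgeR), or −0.26 (SE 0.199, adjusted p = 0.889) without replicate 18.

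Insr encodes the insulin receptor. TUMOUR STD samples held 62.5, 108, 105, 69.1 and 94.7 CPM, CHEMO STD ran from 61.8 to 82.8 CPM (median 74.5) and CHEMO FO from 68.2 to 97.9 CPM (median 82.1). The lowest sample of all was a CHEMO STD library and the next lowest a TUMOUR STD library, so the groups overlapped throughout. The log2 fold change was −0.28 for CHEMO STD against TUMOUR STD (SE 0.145, unadjusted p = 0.0702, adjusted p = 0.719, edgeR), 0.19 for CHEMO FO against CHEMO STD (SE 0.131, adjusted p = 0.974) and −0.09 for CHEMO FO against TUMOUR STD (SE 0.137, adjusted p = 0.861). Leaving out replicate 18 moved none of these by more than 0.01 on the log2 scale. Slow-fibre markers had negative fold changes in all 10 genes for CHEMO STD against TUMOUR STD (median −0.359 on the log2 scale, 2 called, summed level 8510 to 16828 CPM in TUMOUR STD, 6966 to 11521 in CHEMO STD and 5799 to 16420 in CHEMO FO). Negative too were all 8 tendon markers (median −0.648, 3 called) and 8 of 9 smooth-muscle markers (median −0.261, 3 called), where 1.45% of all genes were called lower. Macrophage and adipocyte markers went the other way, with 10 of 14 and 7 of 8 higher. The part of these markers in the receptor values was not tested.

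Irs1 encodes an adaptor that couples both receptors to PI3K, and it varied widely within groups. TUMOUR STD samples held 112, 173, 195, 169 and 168 CPM. CHEMO STD ran from 107 to 327 CPM with a median of 155, and CHEMO FO from 54.2 CPM in replicate 18 to 242 CPM with a median of 170. Both the highest and the lowest sample belonged to rats given chemotherapy, and the SD in CHEMO STD was 84.96 CPM against 30.9 in TUMOUR STD. The log2 fold change of Irs1 was 0.16, −0.19 and −0.04 in the 3 comparisons (SE 0.274 to 0.308, adjusted p = 0.905, 0.975 and 0.976, edgeR). Without CHEMO STD replicate 6, the highest sample, the first became −0.09 and the second 0.06. Without CHEMO FO replicate 18, the lowest sample, the second was −0.06 (SE 0.232, adjusted p = 0.977, edgeR) and the third 0.11 (SE 0.244, adjusted p = 0.926).

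Irs2, the adaptor gene that FOXO factors and the transcription factor CREB are known to induce, held 39.8, 37.1, 36.3, 26.2 and 36.4 CPM in TUMOUR STD. CHEMO STD ran from 16.1 to 37.3 CPM with a median of 24.7, and CHEMO FO from 23.1 to 53.4 CPM with a median of 32.1. In CHEMO STD 3 of the 6 samples (16.1, 18.8 and 18.97 CPM) lay below every sample of the other groups. The log2 fold change was −0.43 for CHEMO STD against TUMOUR STD (SE 0.222, unadjusted p = 0.0636, adjusted p = 0.719, edgeR) and 0.41 for CHEMO FO against CHEMO STD (SE 0.202, unadjusted p = 0.0551, adjusted p = 0.974). Neither passed the threshold, and they share the CHEMO STD samples. Between CHEMO FO and TUMOUR STD the value was −0.02 (SE 0.209, adjusted p = 0.978). Without replicate 18, CHEMO FO stood at 0.34 against CHEMO STD (SE 0.201, unadjusted p = 0.106, adjusted p = 0.889, edgeR) and at −0.08 against TUMOUR STD (SE 0.207, adjusted p = 0.94).

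Akt1 and Akt2 encode the kinases, of which AKT2 is the form best known for insulin-stimulated glucose uptake in muscle. They varied least of the members, the highest sample being 1.61 times the lowest for Akt1 and 1.68 times for Akt2. For Akt1 the TUMOUR STD samples held 138, 138, 182, 149 and 164 CPM, CHEMO STD ran from 119 to 170 CPM (median 140) and CHEMO FO from 113 to 180 CPM (median 157). For Akt2 they held 170, 155, 187, 173 and 179 CPM, CHEMO STD ran from 159 to 203 CPM (median 185) and CHEMO FO from 127 CPM in replicate 18 to 214 CPM (median 191). The groups overlapped for both kinases. With all 19 samples every log2 fold change of the AKT genes lay between −0.13 and 0.11 (SE 0.111 to 0.138), with adjusted p = 0.788 or above in edgeR. Without replicate 18, CHEMO FO against CHEMO STD was 0.17 for Akt1 (SE 0.115, adjusted p = 0.889) and 0.10 for Akt2 (SE 0.089, adjusted p = 0.899). Against TUMOUR STD it was then 0.04 for Akt1 (SE 0.121, adjusted p = 0.942, edgeR) and 0.19 for Akt2 (SE 0.0938, unadjusted p = 0.0573, adjusted p = 0.568).

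Foxo1 encodes the FOXO factor whose overexpression is known to drive muscle atrophy. TUMOUR STD samples held 13.4, 20.8, 23.2, 13.7 and 19.7 CPM. CHEMO STD ran from 10.8 to 22.2 CPM with a median of 13.4, its highest value being the sum of replicates 1 and 2. CHEMO FO ran from 12.6 to 48.4 CPM with a median of 19.1, the highest being replicate 18 and the next 25.8 CPM in replicate 15. The groups overlapped, although 7 of 8 CHEMO FO samples exceeded the CHEMO STD median. Foxo1 was the member called in CHEMO FO against CHEMO STD, with a log2 fold change of 0.59 (SE 0.248, unadjusted p = 0.0259, adjusted p = 0.974, edgeR). The exact permutation test (two-sided, 3003 arrangements) gave p = 0.0629. Without CHEMO FO replicate 18 the log2 fold change was 0.31 (SE 0.189, unadjusted p = 0.119, adjusted p = 0.889, edgeR) and the call was lost. It was also lost when any of CHEMO STD replicates 2, 3, 4, 5 or 7 or CHEMO FO replicate 15 was left out, at values of 0.52 to 0.57. Against TUMOUR STD the log2 fold change of Foxo1 was −0.27 in CHEMO STD (SE 0.273, adjusted p = 0.798, edgeR) and 0.32 in CHEMO FO (SE 0.257, adjusted p = 0.709), or 0.05 without replicate 18.

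Foxo3, the family member best known for inducing autophagy genes in muscle, held 13.6, 23.5, 25.3, 20.4 and 22.001 CPM in TUMOUR STD. CHEMO STD ran from 10.4 to 27.5 CPM with a median of 16.3 and CHEMO FO from 13.7 to 34.6 CPM with a median of 20.9. Its 3 highest samples were CHEMO FO replicates 18 (34.6 CPM), 16 (34.2 CPM) and 15 (29.8 CPM), while replicates 13 and 19 of the same group lay at 13.8 and 13.7 CPM. The log2 fold change was −0.23 in CHEMO STD against TUMOUR STD (SE 0.255, adjusted p = 0.817, edgeR), 0.38 in CHEMO FO against CHEMO STD (SE 0.231, unadjusted p = 0.114, adjusted p = 0.974) and 0.15 in CHEMO FO against TUMOUR STD (SE 0.24, adjusted p = 0.873). Without replicate 18 the last 2 values were 0.26 (SE 0.224, adjusted p = 0.899) and 0.04 (SE 0.232, adjusted p = 0.979).

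Eif4ebp1 encodes the translation repressor 4E-BP1. TUMOUR STD samples held 34.1, 42.8, 49.8, 40.8 and 54.3 CPM, CHEMO STD ran from 35.8 to 66.6 CPM with a median of 45.1, and CHEMO FO ran from 38.7 to 253 CPM with a median of 50.5. The value of 253 CPM was that of replicate 18, and the other 7 CHEMO FO samples lay between 38.7 and 56.8 CPM, inside the CHEMO STD range. With replicate 18 the log2 fold change was 0.61 against CHEMO STD (SE 0.35, unadjusted p = 0.0959, adjusted p = 0.974, edgeR) and 0.75 against TUMOUR STD (SE 0.372, unadjusted p = 0.0569, adjusted p = 0.554). Without it these were −0.03 (SE 0.155, adjusted p = 0.983) and 0.12 (SE 0.163, adjusted p = 0.849). Leaving out any other CHEMO FO library brought the second past both thresholds, at 0.81 to 0.85, with adjusted p from 0.414. DESeq2 on the compared groups alone replaced the count of 2788 reads in replicate 18 by 539 and 521 in those fits and gave −0.02 and 0.12. Between CHEMO STD and TUMOUR STD the log2 fold change of Eif4ebp1 was 0.14 (SE 0.389, adjusted p = 0.939, edgeR).

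**Figure D2:**
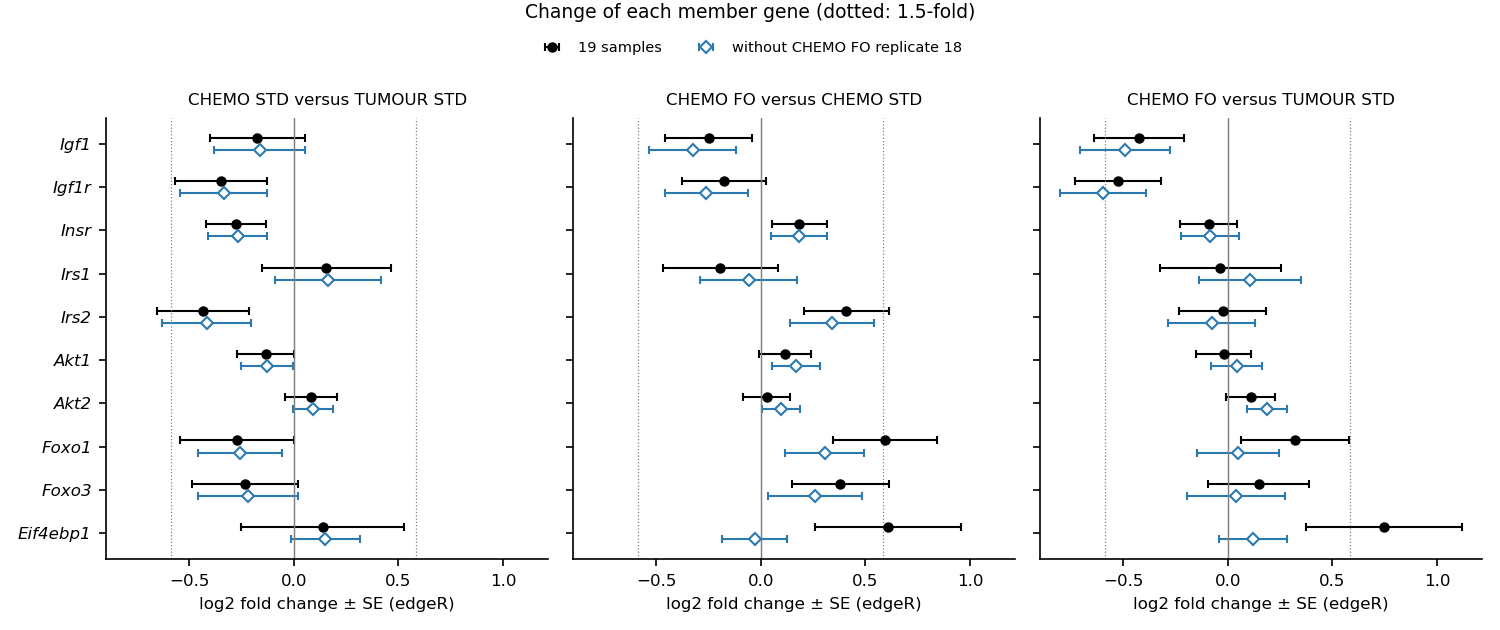
Log2 fold change with its standard error for each gene in the 3 comparisons, from edgeR, with all 19 samples (black) and without CHEMO FO replicate 18 (open diamonds); dotted lines mark 1.5-fold. Leaving the library out moves Eif4ebp1 from 0.61 to −0.03 and Foxo1 from 0.59 to 0.31 in CHEMO FO against CHEMO STD, and leaves Insr at 0.19 and 0.18.

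Across the 10 members, the median absolute deviation of a sample from its group median was largest in CHEMO FO replicate 18, at 0.538 on the log2 scale. CHEMO FO replicate 15 followed at 0.416 and TUMOUR STD replicate 8 at 0.384. Over all genes tested the same measure was also largest in replicate 18, at 0.403 against 0.106 to 0.284 in the other samples, so the deviation was not particular to the members. Replicate 18 was the highest of the 19 samples for Foxo1, Foxo3 and Eif4ebp1 and the lowest for Irs1 and Akt2. These were 3 and 2 of the 10 members, where replicate 18 was the highest for 18.6% and the lowest for 18.2% of all genes tested. Its Igf1, Igf1r and Insr levels (20.9, 21.9 and 84.2 CPM) lay inside the range of the other CHEMO FO samples for both receptors and just above it for Igf1. Replicate 15 was the lowest of all for Igf1 and Akt1 and the second highest for Foxo1. Glucocorticoid-induced genes were also highest in these libraries, at 4197 CPM summed over 12 genes in replicate 18 and 2544 CPM in replicate 15, against a CHEMO FO median of 1300 CPM and ranges of 776 to 1419 CPM in TUMOUR STD and 777 to 1493 CPM in CHEMO STD. All 11 of those tested were higher in CHEMO FO than in CHEMO STD (median log2 fold change 0.489, 2 called, where 0.615% of all genes were called higher). These values include replicate 18, and the part of these genes in the FOXO values was not tested. Glul alone held 2089 CPM of the sum in replicate 18 and 1790 CPM of that in replicate 15. Fkbp5 and Zbtb16 were highest in replicate 15 and Ddit4 and Nfkbia in CHEMO FO replicate 17, and the rest of the list in replicate 18.

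**Figure D3:**
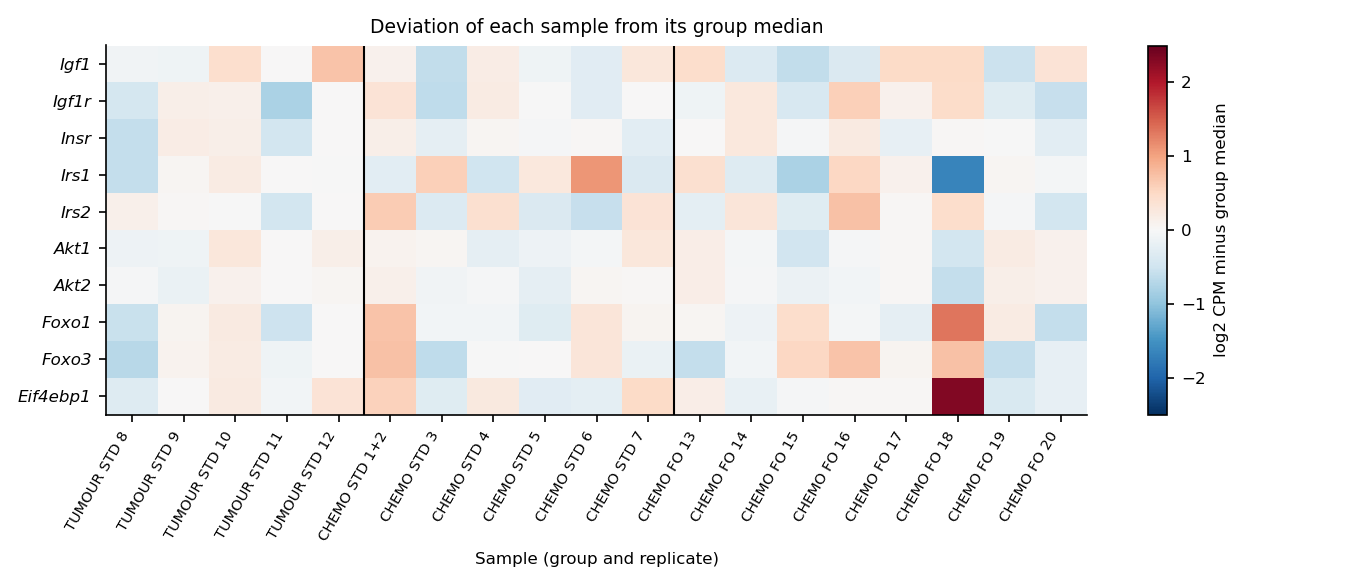
Deviation of each sample from the median of its own group, as log2 CPM (colour), for the 10 genes (rows) in the 19 samples (columns, black lines between groups). Replicate 18 of CHEMO FO has the strongest colours, above its group for Eif4ebp1 and Foxo1 and below it for Irs1. Its median absolute deviation was 0.538 over the 10 genes and 0.403 over all genes tested, the largest of the 19 samples in both.

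Since library scaling cancels in a ratio, paired members were also set against each other within a sample, as log2 ratios of CPM whose level depends on transcript length and is read only across groups. The Akt2 to Akt1 ratio was 0.17 ± 0.0991 (SD, n = 5) in TUMOUR STD, 0.38 ± 0.164 (n = 6) in CHEMO STD and 0.30 ± 0.134 (n = 8) in CHEMO FO. The Igf1r to Insr ratio was −1.89 ± 0.175, −1.99 ± 0.281 and −2.35 ± 0.328 in the same order, and 5 of the 8 CHEMO FO and 2 of the 6 CHEMO STD samples lay below the lowest TUMOUR STD sample (−2.18). The Foxo1 to Foxo3 ratio was −0.21 ± 0.206, −0.21 ± 0.303 and −0.07 ± 0.56, or −0.15 ± 0.555 in CHEMO FO without replicate 18. The Irs2 to Irs1 ratio was −2.20 ± 0.443, −2.77 ± 1.101 and −2.12 ± 0.851, or −2.38 ± 0.467 in CHEMO FO without replicate 18. The groups overlapped in all 4 ratios, and no test was run on them.

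**Figure D4:**
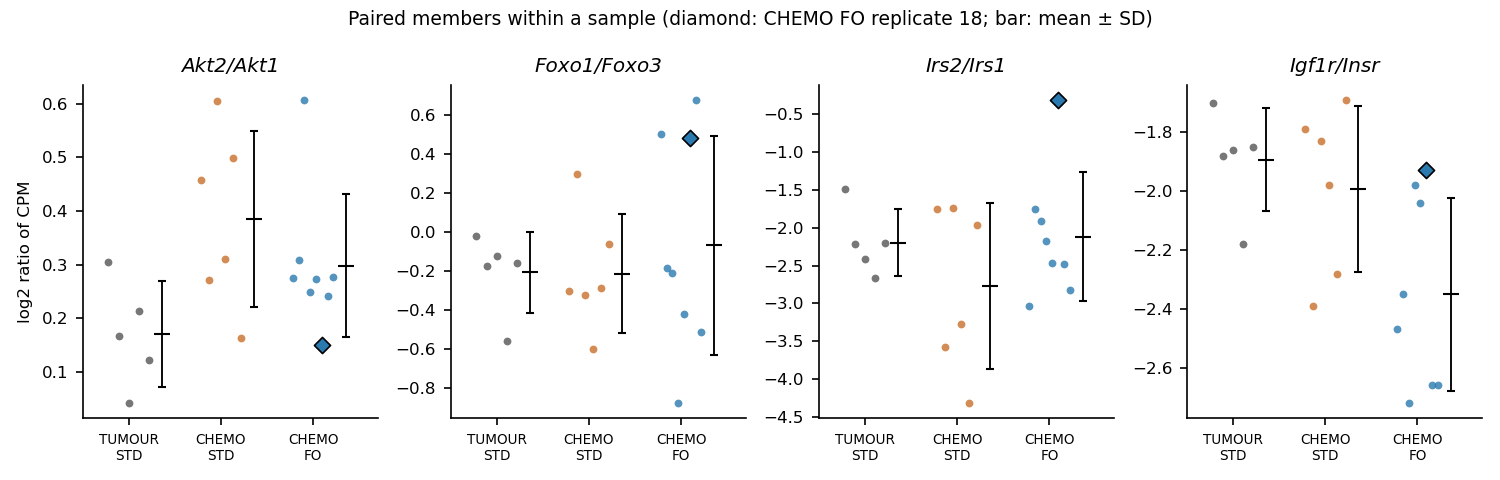
Log2 ratio of 2 members within each sample (vertical axis) by group (horizontal axis), with dots for samples, a diamond for CHEMO FO replicate 18 and bars for the mean with its SD. The Igf1r to Insr ratio is lowest in CHEMO FO, with a mean of −2.35 against −1.89 in TUMOUR STD, and the replicate 18 diamond is highest in its group for Irs2 to Irs1.

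Other genes of the pathway were read from fixed lists. Among IGF ligands and binding proteins, 8 of 13 in the table were tested, and 7 were lower in CHEMO STD and all 8 lower in CHEMO FO than in TUMOUR STD (medians −0.173 and −0.267). Of these Igfbp4, which sequesters IGF1, was called lower in CHEMO STD (−0.59, SE 0.281, unadjusted p = 0.046, adjusted p = 0.719, edgeR), a call lost on leaving out TUMOUR STD 10 or 12, CHEMO STD 3, 4, 5 or 6, or CHEMO FO replicate 14, 18, 19 or 20. Over all fits that left out 1 library its value ran from −0.70 to −0.42, and it was −0.58 (unadjusted p = 0.0455) without CHEMO FO replicate 18. Igf2, the fetal ligand also made by adult muscle, was called lower in CHEMO FO than in TUMOUR STD (−0.64, SE 0.225, unadjusted p = 0.00897, adjusted p = 0.486, edgeR), and lost when TUMOUR STD replicate 9 or 10 or CHEMO FO replicate 18 was left out. Its range was 15.3 to 40.2 CPM in TUMOUR STD and 10.7 to 27.1 CPM in CHEMO FO. No gene of the list was called for CHEMO FO against CHEMO STD, the smallest p being that of Igfbp4 above 0 (0.44, unadjusted p = 0.0997, adjusted p = 0.974, edgeR) and Igf2 below it (−0.47, unadjusted p = 0.0413, adjusted p = 0.974).

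The growth hormone list held 7 genes, and Cish, a STAT5 target that brakes growth hormone receptor signalling, was the largest change of the pathway lists against TUMOUR STD in CHEMO STD. Cish ran from 3.47 to 21.5 CPM in TUMOUR STD, from 8.26 to 58.5 CPM in CHEMO STD and from 5.36 to 66.0 CPM in CHEMO FO, so the groups overlapped. Its log2 fold change against TUMOUR STD was 1.73 in CHEMO STD (SE 0.587, unadjusted p = 0.0073, adjusted p = 0.719, edgeR) and 1.66 in CHEMO FO (SE 0.567, unadjusted p = 0.00758, adjusted p = 0.486), and both calls held in all 20 leave-one-out fits. Against CHEMO STD no gene of the list was called in CHEMO FO, with Stat5b at 0.16 (unadjusted p = 0.156) and Socs2 at −0.52 (unadjusted p = 0.0641, adjusted p = 0.974 for both, edgeR). Among the 3 receptors tested, none was called, and all 3 were lower in both treated groups than in TUMOUR STD. Igf2r had the smallest p in CHEMO STD (−0.32, SE 0.151, unadjusted p = 0.0469, adjusted p = 0.719, edgeR).

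Of 14 adaptor and feedback genes tested, 2 were called with lower levels under chemotherapy in CHEMO STD against TUMOUR STD, where 1.45% of all genes were. Ptprf, a receptor tyrosine phosphatase, was lower there (−0.95, SE 0.37, unadjusted p = 0.017, adjusted p = 0.719, edgeR) and in CHEMO FO (−0.88, SE 0.346, adjusted p = 0.503), and both calls were lost without TUMOUR STD replicate 10 (−0.31 and −0.24), the library with the keratinocyte markers. Enpp1, an inhibitor of the insulin receptor, was lower in CHEMO STD (−0.62, SE 0.195, unadjusted p = 0.00435, adjusted p = 0.719, edgeR), at 7.31 to 11.4 CPM against 10.4 to 20.2 CPM in TUMOUR STD, and that call was lost on leaving out TUMOUR STD replicate 10, TUMOUR STD replicate 12 or CHEMO STD replicate 5. Socs3, the cytokine-induced feedback inhibitor, was called higher in CHEMO FO than in TUMOUR STD (0.72, SE 0.328, unadjusted p = 0.0393, adjusted p = 0.541, edgeR), a call lost without replicate 18 (0.48) or TUMOUR STD replicate 8 or 9. Between CHEMO FO and CHEMO STD no gene of this list was called, the smallest p being that of Irs2 above and Grb2 below 0 (−0.09, unadjusted p = 0.38, adjusted p = 0.974, edgeR).

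Among the 12 PI3K and phosphatase genes, 9 AKT and brake genes and 21 mTORC1 and translation genes, 0 were called in any of the 3 comparisons. At an unadjusted p below 0.05 in edgeR there were 1, 2 and 2 of them in CHEMO STD against TUMOUR STD, 0, 0 and 1 in CHEMO FO against CHEMO STD, and 0, 0 and 1 in CHEMO FO against TUMOUR STD. In CHEMO STD against TUMOUR STD the smallest p belonged to Inpp5k (−0.37, unadjusted p = 0.0491), to Akt2 and Phlpp1 (−0.38, unadjusted p = 0.0438), and to Rheb (0.24, unadjusted p = 0.0267) and Tsc2 (−0.45, unadjusted p = 0.0255), with adjusted p = 0.719 or above in edgeR. Rheb is the GTPase that switches on mTORC1 and Tsc2 part of the complex that holds it off. For CHEMO FO against CHEMO STD they were Pik3r1 (0.44) and Pik3r3 (−0.52), Phlpp1 (0.25) and Trib2 (−0.27), and Eif4g1, the scaffold that 4E-BP1 competes with for eIF4E (0.27, SE 0.0933, unadjusted p = 0.00823), and Sesn3 (−0.28), each with adjusted p = 0.974 in edgeR. For CHEMO FO against TUMOUR STD they were Pik3r1 (0.62) and Pik3cd (−0.40), Akt2 and Trib2 (−0.32), and Rheb (0.38, SE 0.0975, unadjusted p = 0.000771, adjusted p = 0.457) and Sesn3 (−0.35) in edgeR.

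Of 12 genes of insulin-stimulated glucose uptake and storage, none was called between CHEMO STD and TUMOUR STD, where the smallest p was that of Ppp1r3c, a glycogen-targeting phosphatase subunit (0.56, unadjusted p = 0.036), and Hk2, the muscle hexokinase (−0.40, unadjusted p = 0.0212, adjusted p = 0.719 for both, edgeR). Slc2a1, the basal glucose transporter, was called higher in CHEMO FO than in CHEMO STD (0.72, SE 0.348, unadjusted p = 0.0494, adjusted p = 0.974, edgeR), and the call was lost on leaving out TUMOUR STD 11 or 12, CHEMO STD replicate 3, 4, 5, 6 or 7, or CHEMO FO replicate 13, 16, 18 or 20. Ppp1r3c was called higher in CHEMO FO than in TUMOUR STD (0.76, SE 0.242, unadjusted p = 0.00466, adjusted p = 0.486, edgeR) and lost without CHEMO FO replicate 15. In the FOXO family Foxo6 was called in CHEMO STD against TUMOUR STD, at a lower level (−0.93, SE 0.412, unadjusted p = 0.0331, adjusted p = 0.719, edgeR), at 0.954 to 3.37 CPM against 3.40 to 5.15 CPM, and lost on leaving out TUMOUR STD replicate 9, TUMOUR STD replicate 12 or either of CHEMO STD replicates 4 and 5. Foxo6 was near the floor, with at most 60 reads in any sample, so counting error is large in these values.

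FOXO target genes, 31 of 31 tested and 3 of them members (Irs2, Insr and Eif4ebp1), showed no call between CHEMO STD and TUMOUR STD, where 20 were higher and 11 lower (median 0.0978). The smallest p there belonged to Sesn1 (0.33, unadjusted p = 0.111) and Irs2 (adjusted p = 0.719 for both, edgeR). Of the 31, 3 targets were called higher in CHEMO FO than in CHEMO STD, where 0.615% of all genes were. They were Fbxo32 (atrogin-1, 0.92, SE 0.432), Trim63 (MuRF1, 1.25, SE 0.494), both ubiquitin ligases of muscle atrophy, and Cdkn1a (p21, 1.57, SE 0.568), each with adjusted p = 0.974 in edgeR. Without replicate 18 none of the 31 was called, these 3 stood at 0.30, 0.14 and 0.74, the count of genes higher went from 20 to 13, and the median from 0.133 to −0.032. The Fbxo32 call was also lost without CHEMO STD replicate 3, 4, 6 or 7 or CHEMO FO replicate 15 or 17.

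Against TUMOUR STD, 6 of the 31 targets were called higher in CHEMO FO, where 1.09% of all genes were. They were Fbxo32 (1.27), Trim63 (1.26), Ctsl (1.06), Cdkn1a (1.37), Gadd45a (1.29) and Pdk4 (1.89), with adjusted p from 0.486 to 0.543 in edgeR. Only Fbxo32 (0.65, unadjusted p = 0.0475) and Pdk4 (1.36, unadjusted p = 0.0491), the kinase that spares glucose in fasted muscle, were still called without replicate 18, and in these 2 the call held in all 20 leave-one-out fits. Without replicate 18, 69 of all 11583 genes tested were called higher in CHEMO FO than in TUMOUR STD. The calls were also lost without TUMOUR STD replicate 9, 10, 11 or 12 for Ctsl, without TUMOUR STD replicate 8, 9 or 11 or CHEMO FO replicate 15 for Cdkn1a, and without TUMOUR STD replicate 9, 10 or 12 for Gadd45a. In replicate 18 Trim63 stood at 2589 CPM, Fbxo32 at 1865, Ctsl at 1031, Cdkn1a at 183 and Gadd45a at 77.4 CPM, against at most 415, 650, 201, 80.7 and 12.7 CPM in the other 18 samples. Pdk4 stood at 1115 CPM in replicate 18 and reached 1047 CPM in another CHEMO FO library. Replicate 18 was the highest of the 19 samples for 17 of the 31 targets and for 16 of the 28 that are not members, where it was the highest for 18.6% of all genes. It was the lowest for 5 of the 31, where it was the lowest for 18.2% of all genes. In replicate 18, 22 of the 31 targets lay above their median over the 19 samples, against 26 in CHEMO FO replicate 17. Summed over the 31 targets replicate 18 held 10610 CPM, the next library was CHEMO FO replicate 17 with 5501 CPM, and the medians were 3487 CPM in TUMOUR STD, 3770 in CHEMO STD and 3517 in CHEMO FO. The list was chosen with results of these samples known, so its direction is not independent evidence.

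**Figure D5:**
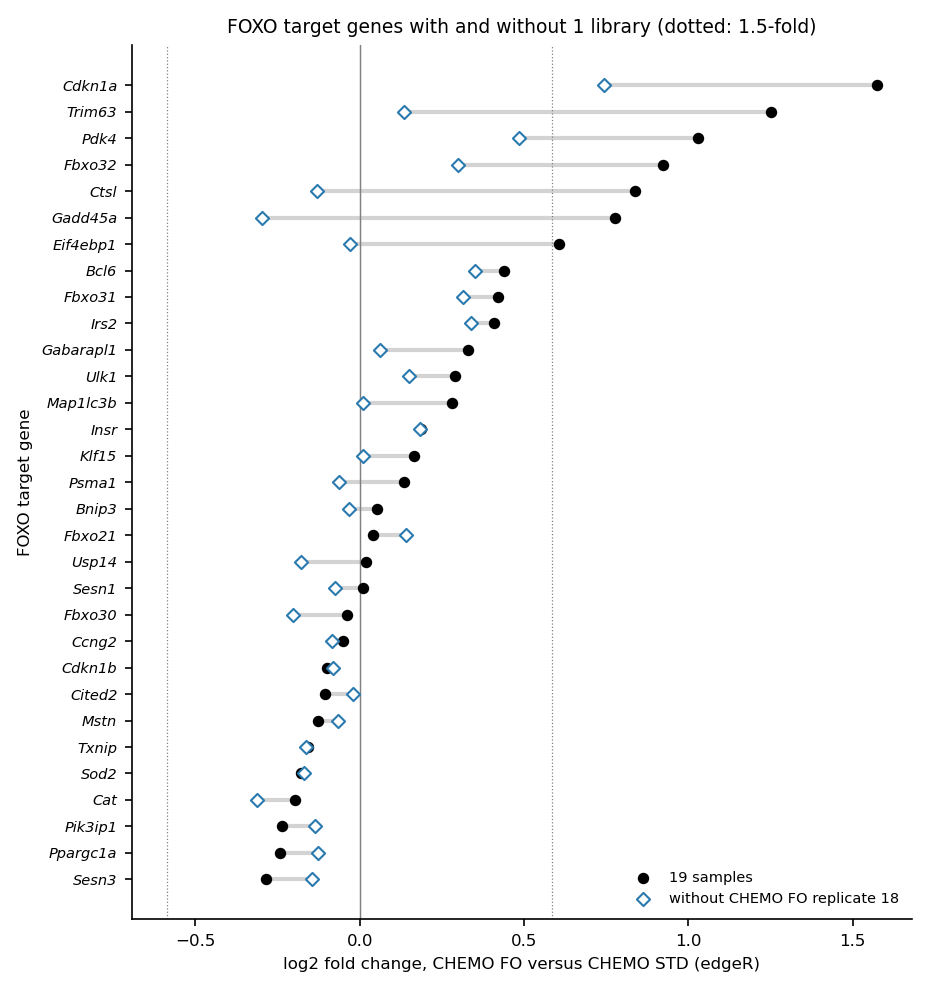
Log2 fold change of the 31 FOXO target genes (vertical axis) in CHEMO FO against CHEMO STD (horizontal axis, edgeR), with all 19 samples (black dots) and without CHEMO FO replicate 18 (open diamonds); dotted lines mark 1.5-fold. Trim63 moves from 1.25 to 0.14 and Cdkn1a from 1.57 to 0.74 when the library is left out, while Insr stays at 0.19 and 0.18.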

How the data were processed

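Gastrocnemius RNA was sequenced in 20 libraries of ribosome-depleted, stranded total RNA, counted here as 19 samples. The authors trimmed reads with Trim Galore 0.4.1 and aligned them with TopHat2 2.0.10 and Bowtie2 to the rat genome Rnor 6, and deposited raw counts per gene. How strand and multi-mapped reads were counted is not given in the sources used here. Rows without a gene name (388 rows, 0.102 to 0.272% of counts) were left out. CHEMO STD replicates 1 and 2 were summed. Counts were filtered with filterByExpr, scaled by TMM and fitted with edgeR 4.0.16 (R 4.3.3) on 19 samples in 3 groups with no covariate, with p-values adjusted over 11716 genes; the script was tested on simulated data. Group means of CPM are untransformed and fold changes are edgeR's. DESeq2 1.42.0, limma 3.58.1, other scalings and filters and each library left out were tried. The labels do not say whether samples of a group were processed apart, so p-values measure the spread between these samples. The deposited names of CHEMO STD replicates 1 and 2 carry the letters MB and those of all other libraries VM. What these letters stand for is not given. The members and gene lists were chosen with earlier results of these data known. Genes were named by rule: all members, called genes of each list or otherwise the smallest p in each direction, and the 3 genes most correlated with each member; 1 gene that the rule names is not reported here. List symbols without a row (9, among them Irs4 and Pappa) were not analysed here. Promoters came from RefSeq (GRCr8), a build other than that of the counts.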

Additional observations from a re-analysis of the deposited data

Results flagged for a closer look

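In groups of 5 to 8 samples, 6 values stood apart from the rest of their group by Dixon's gap test at 95%, of 42 groups tested over the 10 genes and 4 ratios. About 2.1 would arise by chance from normal and independent values. The CPM were not log-transformed and the ratios use the same genes and samples, so that figure is only a rough guide. Of the 6 values, 3 came from CHEMO FO replicate 18: Foxo1 at 48.4 CPM, Eif4ebp1 at 253 CPM and the log2 ratio of Irs2 to Irs1 at −0.304. The gap took up 0.631, 0.916 and 0.529 of the group's range against a critical value of 0.526. Another 2 came from TUMOUR STD replicate 11, with Irs2 at 26.2 CPM and the log2 ratio of Foxo1 to Foxo3 at −0.558, where the gap was 0.746 and 0.713 of the range against 0.71. In CHEMO FO replicate 15 the log2 ratio of Akt2 to Akt1 was 0.608, with a gap of 0.655 of the range.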

How the results depend on the processing

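No paired analysis was possible because the groups share no replicate numbers. Of 960 values of the members under the alternatives, 914 kept their direction and side of the threshold, 11 lost and 11 gained a call and 24 changed sign. The count of genes called in the 3 comparisons moved to 762, 528 and 1059 with no fold threshold, to 64, 58 and 112 at 2-fold, and to 971, 722 and 1116 with no filter on low counts. It was 603 in CHEMO STD against TUMOUR STD without CHEMO STD replicates 1 and 2, and 135 there and 280 in CHEMO FO against TUMOUR STD without TUMOUR STD replicate 10 and CHEMO STD replicate 7. Leaving out each library gave 161 to 530, 153 to 234 and 273 to 584, where TUMOUR STD replicates 10 and 8 set the first bounds (450 without replicate 11) and CHEMO FO replicate 18 and TUMOUR STD replicate 11 the last. The count of members called was 0 to 0, 0 to 1 and 0 to 2 in the same fits. In CHEMO FO against CHEMO STD it was 0 under limma voom with quality weights (Foxo1 0.36), with CHEMO STD replicates 1 and 2 kept apart (0.50) and without TUMOUR STD replicate 10 and CHEMO STD replicate 7 (0.58), and in CHEMO FO against TUMOUR STD it was 1 (Eif4ebp1) with no filter. The cause was not tested.

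Values that changed sign were near 0 or rested on 1 library. In CHEMO STD against TUMOUR STD, Irs1 lay between −0.0896 (without CHEMO STD replicate 6) and 0.272 over the fits that left out 1 library. For CHEMO FO against CHEMO STD the range was −0.308 to 0.0624 (without CHEMO STD replicate 6) for Irs1, −0.00815 (without CHEMO STD replicate 5) to 0.0971 for Akt2 and −0.0292 (without CHEMO FO replicate 18) to 0.704 for Eif4ebp1. Akt2 was also −0.00832 with unscaled library totals, and Eif4ebp1 −0.024 under DESeq2 on the compared groups. For CHEMO FO against TUMOUR STD it was −0.143 to 0.106 for Irs1 (positive without TUMOUR STD replicate 10 or CHEMO FO replicates 14, 15 or 18), −0.128 to 0.054 for Irs2 (positive without TUMOUR STD replicate 8 or CHEMO FO replicates 13, 15 or 20) and −0.0566 to 0.0434 for Akt1 (positive without TUMOUR STD replicates 10 or 12 or CHEMO FO replicates 15 or 18). There Irs1, Akt1 and Foxo3 were 0.0964, 0.105 and −0.0557 under voom, and Irs1 and Akt1 were 0.0377 and 0.0511 without TUMOUR STD replicate 10 and CHEMO STD replicate 7. The lowest member counts, 33 to 39 reads for Igf1, Igf1r, Foxo1 and Foxo3, carry a counting error of 16 to 17.4%.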

Other observations

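The genes whose log2 CPM most resembled that of each member over the 19 samples are given as a description, since the samples share groups, depth and the library that stood apart. Igf1r lay closest to Sp1 (Pearson r 0.866), Numa1 (0.841) and Fibin (0.829), and the value for Sp1, a transcription factor that binds GC boxes, was 0.877 without CHEMO FO replicate 18. Insr lay closest to Ubr4 (0.902), Wdfy3 (0.897) and Nup214 (0.895). Igf1 lay closest to Atxn7l3b (0.79), Clmp (0.785) and Srpx2 (0.739). Irs1 lay closest to Rilp (0.877), Fmn1 (0.864) and Ppif (0.803), values of 0.849, 0.822 and 0.638 without replicate 18. Irs2 lay closest to Ifnar1 (0.888), Sf3b2 (0.868) and Mcrip1 (0.829). Akt1 lay closest to Aimp2 (0.882), Lgals1 (0.873) and Pcbp4 (0.864). Akt2 lay closest to Ndufs7 (0.957), Macrod1 (0.934) and Ndufaf3 (0.921), of which Ndufs7 is a subunit and Ndufaf3 an assembly factor of mitochondrial complex I. Without replicate 18 the Akt2 values were 0.918, 0.868 and 0.841.

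Foxo1 lay closest to Wdr81 (0.899), Il6r (0.897) and Ip6k3 (0.864), values of 0.824, 0.8 and 0.723 without replicate 18. Foxo3 lay closest to Rttn (0.856), Ets2 (0.795) and Dhx37 (0.794). Eif4ebp1 lay closest to Mgp (0.926), Pdpn (0.918) and Slc15a4 (0.912), and without replicate 18 these were 0.686, 0.582 and 0.547. Mt2A, a metallothionein, stood at 727 CPM in replicate 18 and at most 11.1 CPM in the other samples.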
